A study of Rattus norvegicus with 6 samples.

Results

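The Cyp26 family comprises the retinoic acid (RA) hydroxylases Cyp26a1, Cyp26b1 and Cyp26c1. Its members were chosen by symbol, and all 3 were found among the 18923 genes counted. RNA-Seq was carried out on primary chondrocytes isolated from the cartilage of newborn (24-h-old) female Sprague-Dawley rats and used at passage 1 or 2. The cells were wild type (WT). Untreated cells (CON, 3 samples) were kept for 24 h in high-glucose DMEM with fetal bovine serum. Treated cells (RA, 3 samples) were kept for the same 24 h in this medium with 1 µM retinoic acid. A vehicle for the CON cells is not named in the sources used here, and neither is the number of animals behind each sample. These are early-passage cultures of cells freed from their matrix, and no tissue was profiled.

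RA is made from vitamin A by oxidation of retinol to retinal and of retinal to RA, and it acts by binding nuclear receptors that sit on response elements in DNA. Cytochrome P450 enzymes of the Cyp26 family hydroxylate RA to polar products that the cell can clear, so they set how much RA reaches the receptors. Cyp26a1 is a classical RA-induced gene, Cyp26b1 is known for limiting RA in the limb bud, the gonad and the developing skeleton, and Cyp26c1 is best known from the embryonic hindbrain and head.

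All 3 hydroxylase genes were higher in RA than in CON. Mean FPKM (reads scaled to the length of the gene and to the total count of the sample) rose from 0.389 ± 0.162 to 4.01 ± 0.596 for Cyp26a1, from 1.51 ± 0.187 to 9.52 ± 0.916 for Cyp26b1, and from 0.172 ± 0.112 to 0.751 ± 0.307 for Cyp26c1 (SD, n = 3 per group). A gene was called a differentially expressed gene (DEG) at a Benjamini-Hochberg adjusted p below 0.05 in edgeR's quasi-likelihood test if its log2 fold change was also above 0.58 or below -0.58. By this rule Cyp26a1, Cyp26b1 and Cyp26c1 were DEGs, the last having passed the filter on low counts through its RA samples. Of the 13438 genes tested, 4.96% were DEGs and 2.67% were DEGs with a higher level in RA. The calls of Cyp26a1 and Cyp26b1 held in every fit that was run, and that of Cyp26c1 did not. In bulk samples such as these, more cells expressing a gene and more RNA per cell cannot be told apart.

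The 250 bases before the start of each gene are shown because a direct repeat of the kind bound by RA receptors was found in 1 of them. They are from the RefSeq promoter table of the rat assembly GRCr8 and are written 5′ to 3′ on the strand of the gene. Capitals mark the repeat.
Cyp26a1, chr1:244883572-244883821, plus strand: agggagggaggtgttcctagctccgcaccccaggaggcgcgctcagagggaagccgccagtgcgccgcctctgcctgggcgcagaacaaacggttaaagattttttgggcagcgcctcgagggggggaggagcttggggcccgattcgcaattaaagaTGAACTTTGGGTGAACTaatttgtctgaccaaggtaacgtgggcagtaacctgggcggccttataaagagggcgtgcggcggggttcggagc
Cyp26b1, chr4:118616177-118616426, minus strand: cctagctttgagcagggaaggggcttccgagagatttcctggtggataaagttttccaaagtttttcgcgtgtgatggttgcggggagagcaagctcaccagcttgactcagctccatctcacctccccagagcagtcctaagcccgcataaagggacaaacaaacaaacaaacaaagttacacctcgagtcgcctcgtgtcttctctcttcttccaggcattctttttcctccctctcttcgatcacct
Cyp26c1, chr1:244870162-244870411, plus strand: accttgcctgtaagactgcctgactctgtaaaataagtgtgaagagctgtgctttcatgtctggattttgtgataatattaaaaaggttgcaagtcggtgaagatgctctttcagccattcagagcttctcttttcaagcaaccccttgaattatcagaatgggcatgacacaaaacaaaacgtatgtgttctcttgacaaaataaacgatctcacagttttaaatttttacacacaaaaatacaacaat

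In the Cyp26a1 promoter the capitals hold 2 half-sites of 6 bases with a spacer of 5 bases. On the opposite strand they read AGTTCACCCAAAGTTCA, and they lie 92 to 76 bases before the start of the gene, upstream of a TATAAA box that begins 31 bases before it. The half-site AGGTCA was searched together with the variant AGTTCA, the variant GGGTCA and the variant GGTTCA, on both strands, in windows of 300 bases that ran from 250 bases before to 50 bases after each start. The Cyp26b1 and Cyp26c1 windows held none of these half-sites, which says only that the letters are not in these windows. Among 33469 rat promoters of the same length, 44.4% held at least 1 half-site, 0.382% held a direct repeat with a spacer of 5, and 8.8% held TATAAA on the strand of the gene. The windows also differed in base composition. GC content was 63.7% for Cyp26a1, 52.7% for Cyp26b1 and 38.0% for Cyp26c1, with 25, 12 and 4 CpG dinucleotides.

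The same repeat was looked for in the other genes, after the fold changes were known. Of 9802 tested genes with a promoter in the table, 8 held it and 2.49% were higher in RA. Beside Cyp26a1, whose repeat prompted the search, 7 genes held it, and of these Rarb (an RA receptor) and Csn3 (the milk protein kappa-casein) were higher in RA. The call of Rarb was lost in 5 of 6 fits with 1 sample left out. Csn3 was low in CON, at 0.0966 FPKM, beside 2.97 FPKM in RA (log2 fold change 4.83, edgeR's adjusted p = 3.2e-04). Fits with a sample left out are not given for Csn3, and nothing is read from these numbers of genes. The sequences of the other two called genes are shown beside that of Cyp26a1, each read in the direction of its half-sites, which are in capitals together with the spacer.
Cyp26a1, bases -92 to -76 from the start: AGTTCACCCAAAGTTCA
Rarb, bases 24 to 40 from the start: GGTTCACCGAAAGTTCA
Csn3, bases -156 to -140 from the start: GGGTCACCTGCAGGTCA

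The other 5 genes with the repeat, Ptpn3, Spg21, RGD1564801, Ice2 and Tmem87a, were not DEGs, with log2 fold changes from -0.10 to 0.45. Ptpn3 (0.45, edgeR's adjusted p = 0.0140) and Spg21 (0.28, edgeR's adjusted p = 0.0424) missed only the fold threshold. Of the retinoid pathway and P450 electron donor genes described further on, 43 had a promoter in the table and only Rarb held the repeat. Occupancy of these sequences was not measured.

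Depth was similar in the 6 samples. Between 29370025 and 38007486 reads were counted per sample, and the floor, set at 3 counts since a count of 0 is compatible with as many, corresponded to 0.0789 to 0.102 CPM (the count scaled to the total count of the sample). Intervals and floors given here cover counting error only. CON sample 1 stood apart from the other CON samples: the chi-square of counts over genes divided by its degrees of freedom was 39.6 against CON sample 2 and 63.3 against CON sample 3, and between 6.53 and 8.25 for all other pairs within a group. The labels name no batch. Of 11 chondrocyte markers, 11 were tested and 9 were DEGs with a lower level in RA, among them Col2a1 and Acan. Over all 13438 genes tested, 308 were DEGs with a lower level in RA. The summed FPKM of the chondrocyte markers was 6801 to 8925 in CON and 4282 to 4620 in RA, so the labelled cell type was present in both groups. For 8 fibroblast and perichondrium markers it was 3850 to 5031 and 4982 to 5229. The endothelial markers Cdh5 and Emcn and the macrophage marker Adgre1 had at most 3 counts in every sample. The summed FPKM of the macrophage list was 13.7 to 14.9 in CON and 16.4 to 17.7 in RA, that of the endothelial list was at most 0.178 in any sample, and that of the skeletal muscle list was 9.23 to 10.9 in CON and 8.93 to 10.8 in RA. Of the 3 tested muscle markers Myod1 was higher and Tnnt3 lower in RA, and of the 8 fibroblast and perichondrium markers Postn was lower. Over all genes tested 4.96% were DEGs. The summed FPKM of 6 osteoblast markers was 829 to 928 in CON and 3067 to 3308 in RA, nearly all of it Spp1, at 820.5 to 919 in CON and 3059 to 3300.0 in RA. Of 4 osteoblast markers tested, Spp1 and Ibsp were DEGs with a higher level in RA and 2 were not called, beside 2.67% higher over all genes tested. The part of these shifts in the Cyp26 results was not tested.

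Cyp26a1 (ENSRNOG00000016750) had 31, 13 and 25 counts in CON samples 1, 2 and 3 and 248, 183 and 218 counts in RA samples 1, 2 and 3. These counts correspond to 1.01, 0.431 and 0.658 CPM in CON and to 8.35, 6.23 and 7.04 CPM in RA. The groups did not overlap, and the lowest RA sample was 6.17 times the highest CON sample. The log2 fold change was 3.35 (SE 0.28), a 10.2-fold increase, with an adjusted p of 2.13e-04 in edgeR's quasi-likelihood test. It was the 8th largest log2 fold change among the 13438 genes tested. CON sample 1, the highest of its group, had a 95% Poisson interval of 21.1 to 44.0 counts, and CON sample 2, the lowest, one of 6.92 to 22.2. The intervals of these 2 samples met only at their ends, and the coefficient of variation of FPKM was 41.7% in CON and 14.9% in RA. Without CON sample 1 the log2 fold change was 3.68, and leaving out each of the 6 samples in turn gave values from 3.10 to 3.68.

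Cyp26b1 (ENSRNOG00000015076) was the most abundant member and the one measured with the most counts. It had 188, 235 and 253 counts in the CON samples and 1284, 1151 and 1471 counts in the RA samples. In CPM the CON samples were at 6.12, 7.79 and 6.66, and the RA samples were at 43.2, 39.2 and 47.5. Again every RA sample was above every CON sample, with a ratio of 5.03 between the lowest RA and the highest CON sample. The log2 fold change was 2.65 (SE 0.11), a 6.27-fold increase, with an adjusted p of 1.18e-05 in edgeR's quasi-likelihood test. By log2 fold change it ranked 19th of all genes tested, and by p it ranked 8th, ahead of Cyp26a1 at 90th. Its coefficient of variation of FPKM was 12.4% in CON and 9.62% in RA, smaller than that of either of the other members. Without CON sample 1 the log2 fold change was 2.57, and leaving out each of the 6 samples in turn gave values from 2.57 to 2.74.

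Cyp26c1 (ENSRNOG00000030698) was the least abundant member. It had 4, 14 and 8 counts in CON and 24, 29 and 53 counts in RA. These were 0.1303, 0.464 and 0.210 CPM in CON and 0.808, 0.987 and 1.71 CPM in RA. The groups did not overlap, but the lowest RA sample was only 1.74 times the highest CON sample, and the 95% Poisson interval of CON sample 1, from 1.09 to 10.2 counts, reached below the floor of 3 counts. The log2 fold change was 2.12 (SE 0.49), a 4.34-fold increase, with an adjusted p of 0.0298 in edgeR's quasi-likelihood test. The call was lost for 4 of the 6 samples when they were left out singly. The log2 fold change and the adjusted p by edgeR were then 1.97 and 0.0786 (CON sample 3 left out), 2.33 and 0.0548 (RA sample 1), 2.22 and 0.0804 (RA sample 2) and 1.73 and 0.133 (RA sample 3). It was called without CON sample 1, with a log2 fold change of 1.81, and without CON sample 2, with one of 2.71. In CON only sample 2 was above the level that the filter on low counts asks for, so the gene entered the test through its RA samples. In 16.8% of all genes tested every RA sample was above every CON sample. This held for Cyp26a1 and Cyp26b1, and for Cyp26c1 the way it entered the test makes the comparison uninformative.

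**Figure D1:**
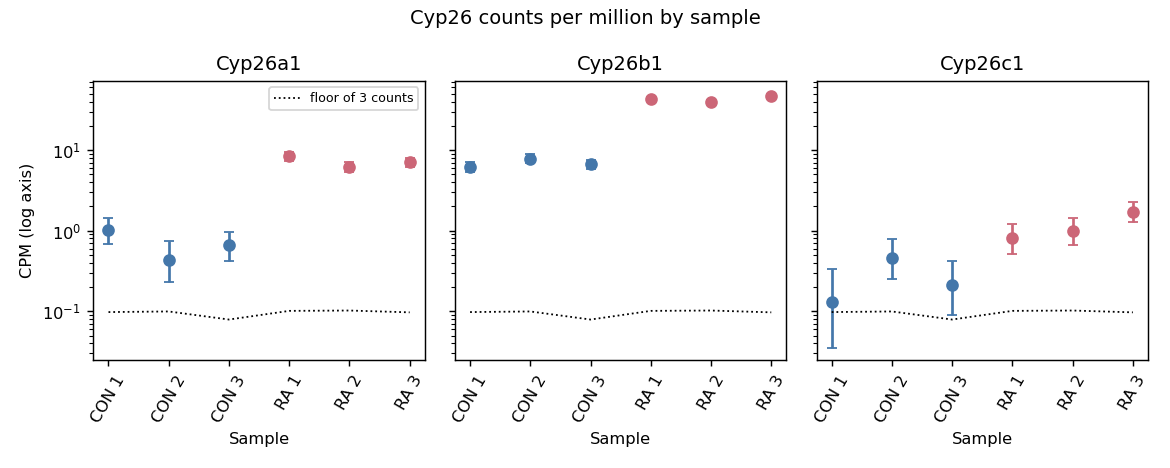
CPM of Cyp26a1, Cyp26b1 and Cyp26c1 on a log axis in each of the 3 CON samples (blue) and 3 RA samples (red). Points are single samples, bars are 95% Poisson intervals of the count, and the dotted line is the floor of 3 counts; no RA point lies at or below a CON point of the same gene.

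The replicates of a group did not order the members alike. In CON, sample 2 was the lowest for Cyp26a1 and the highest for Cyp26b1 and Cyp26c1. In RA, sample 1 was the highest for Cyp26a1, and sample 3 was the highest for Cyp26b1 and Cyp26c1. For comparison between members, levels were taken in FPKM, which divides by 1 length per gene: 1797 bases for Cyp26a1, 4550 for Cyp26b1 and 1557 for Cyp26c1. In 5 of 6 samples the order of FPKM was Cyp26b1, Cyp26a1, Cyp26c1. The exception was CON sample 2, where Cyp26c1 was at 0.298 and Cyp26a1 at 0.240. The CON ranges of these 2 members overlapped, from 0.240 to 0.562 for Cyp26a1 and from 0.0837 to 0.298 for Cyp26c1, and their RA ranges did not, from 3.47 to 4.65 and from 0.519 to 1.10. Cyp26b1 was above both of the others in every sample, at 1.35 to 1.71 in CON and 8.61 to 10.4 in RA. Among all tested genes ordered by mean FPKM, Cyp26b1 moved from percentile 19.8 in CON to 53.2 in RA, Cyp26a1 from 7.87 to 33.6, and Cyp26c1 from 2.94 to 13.1.

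The summed FPKM of the family was 1.99, 2.25 and 1.96 in CON and 14.7, 12.7 and 15.5 in RA. The mean rose from 2.07 ± 0.158 to 14.3 ± 1.42, a ratio of 6.91 between the means. A two-sided exact permutation test gave p = 0.1, the smallest p that 3 samples against 3 allow. Cyp26b1 made up most of this sum in every sample, with 67.6%, 76.1% and 74.5% in CON and 64.8%, 67.7% and 67.5% in RA. Cyp26a1 made up 28.2%, 10.7% and 18.6% in CON and 31.7%, 27.3% and 25.3% in RA. Cyp26c1 held the rest, between 4.20% and 13.2% in CON and between 3.54% and 7.11% in RA.

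**Figure D2:**
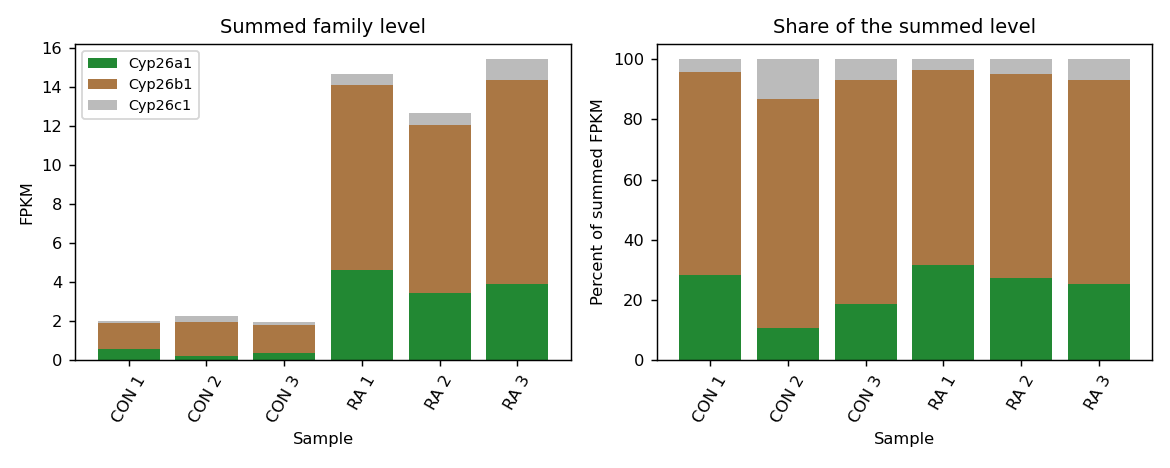
Left, FPKM of the 3 Cyp26 genes stacked for each CON and RA sample; right, the same values as percent of their sum. The sum lies between 1.96 and 2.25 in CON and between 12.7 and 15.5 in RA, and Cyp26b1 is the largest segment in all 6 samples.

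The make-up of the family was not shown to differ between the groups. The mean share of Cyp26a1 was 19.2% ± 8.79 in CON and 28.1% ± 3.25 in RA, and the groups overlapped because CON sample 1 was above RA samples 2 and 3 (exact permutation test, two-sided, p = 0.3). For Cyp26b1 the mean share was 72.7% in CON and 66.7% in RA (exact p = 0.2), and for Cyp26c1 it was 8.11% and 5.21% (exact p = 0.5). Counted without division by length, the mean share of Cyp26a1 was 9.20% in CON and 14.0% in RA (exact p = 0.3). A direct test of unequal change gave the same picture. The log2 ratio of Cyp26a1 to Cyp26b1 was -2.03 ± 0.79 in CON and -1.25 ± 0.20 in RA, a difference of 0.78 (exact p = 0.3, 0.45 after Benjamini-Hochberg adjustment over the 3 ratios). The ratio of Cyp26a1 to Cyp26c1 differed by 1.19 on the log2 scale (exact p = 0.3) and that of Cyp26b1 to Cyp26c1 by 0.41 (exact p = 0.6). Both of these ratios were lowest in CON sample 2, at 0.805 and 5.74 before taking logs. No p of these tests could have gone below 0.1, so they do not show that the members changed alike. Without CON sample 1 the difference between Cyp26a1 and Cyp26b1 was 1.16, and without CON sample 2 it was 0.38.

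**Figure D3:**
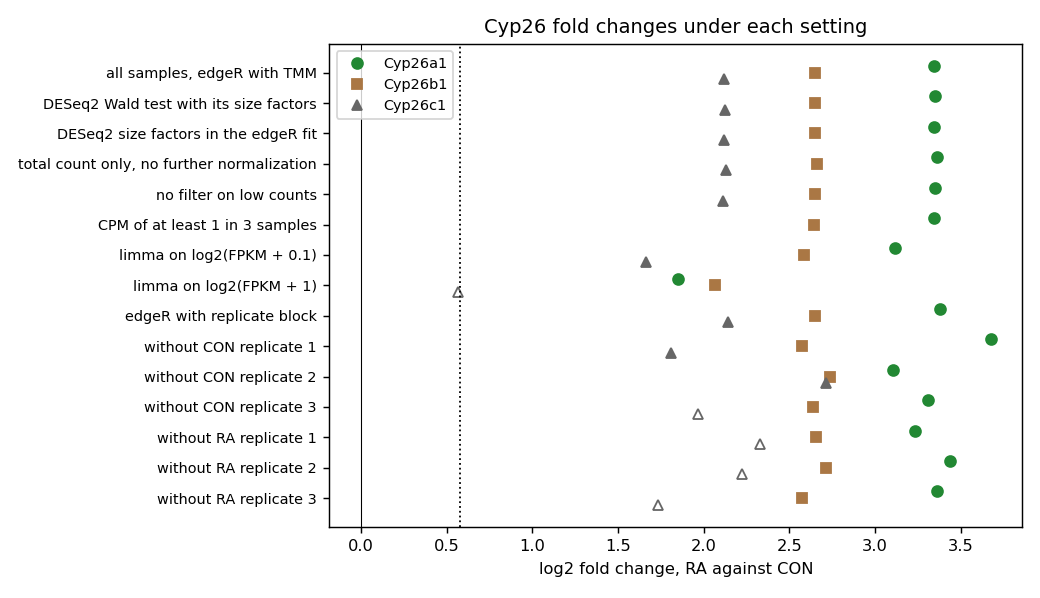
Log2 fold change of RA against CON for the 3 Cyp26 genes (horizontal axis) in each fit (vertical axis). Filled symbols are DEGs in that fit, open symbols are not, and the dotted line marks 0.58; Cyp26a1 and Cyp26b1 are filled throughout and Cyp26c1 is open in 5 fits and has no point under the stricter filter.

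The family was set beside 57 other genes in 7 lists, called the retinoid lists here. They cover the retinoid pathway from uptake to response and also hold the P450 electron donors. Of the 57 genes, 52 were matched by symbol, 40 were tested, 5 rose in RA, 2 fell and 33 were not called. The 7 DEGs, among them the electron donor Fdxr, were 17.5% of those tested, beside 4.96% of all genes tested. The lists were chosen with earlier results of these data known, so nothing is read from this share. The number of DEGs in the lists was 3 when any 1 RA sample was left out and 4 without CON sample 2. The tested genes of the lists had a median log2 fold change of -0.02, compared with -0.0057 for all genes tested.

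Upstream of the hydroxylases, RA is formed from retinal by the Aldh1a dehydrogenases, and their counts were low. Aldh1a1 had 0 counts in 5 samples and 2 counts in RA sample 3, at or under the floor throughout, and was not tested. Aldh1a2 had 20, 16 and 14 counts in CON and 11, 18 and 6 in RA, with overlapping groups and a log2 fold change of -0.40 (edgeR's adjusted p = 0.64). Aldh1a3 had 30, 15 and 19 counts in CON and 11, 11 and 14 in RA, a log2 fold change of -0.72 (edgeR's adjusted p = 0.298). Neither of these passed the test. With 1 sample left out the log2 fold change ran from -0.87 to -0.07 for Aldh1a2 and from -0.88 to -0.33 for Aldh1a3. The summed FPKM of the 3 synthetic enzymes was 0.577, 0.382 and 0.311 in CON and 0.274, 0.382 and 0.249 in RA. The summed FPKM of the Cyp26 genes was 3.45, 5.89 and 6.32 times this sum in CON and 53.6, 33.3 and 62.2 times this sum in RA, a comparison chosen after the values were seen and not tested.

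Of 10 tested enzymes that interconvert retinol and retinal, 2 rose, 1 fell and 7 were not called, beside 4.96% called over all genes tested. Dhrs3, which reduces retinal back to retinol, rose from 14.0 ± 0.829 to 21.9 ± 1.07 FPKM (log2 fold change 0.63, edgeR's adjusted p = 0.00143). Dhrs9, a retinol dehydrogenase of the same enzyme class, rose from 0.236 to 0.611 FPKM (1.34, adjusted p = 0.00956 by edgeR), and its call was lost without RA sample 1 (1.25, adjusted p = 0.0517). Adh7, an alcohol dehydrogenase that oxidizes retinol, fell by 0.96 on the log2 scale, from 2.95 to 1.52 FPKM (edgeR's adjusted p = 0.0121). Its adjusted p by edgeR was 0.0564, 0.0598 and 0.0622 when CON sample 2, RA sample 2 or RA sample 3 was left out. Rdh10, which carries out the first oxidation step in many embryonic tissues, was at 3.52 and 2.53 FPKM. It had an adjusted p of 0.0362 by edgeR, but its log2 fold change of -0.49 did not pass the fold threshold. The adjusted p of Rdh10 by edgeR was 0.0217 without CON sample 1 and 0.0523 to 0.158 when any other sample was left out.

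The proteins that carry RA in the cell did not pass the test. Crabp1, at 0.524 and 0.491 FPKM, had a log2 fold change of -0.09 whose sign turned when CON sample 2 or RA sample 2 was left out. Crabp2, which delivers RA to the receptors, was at 11.1 and 14.8 FPKM (0.40, edgeR's adjusted p = 0.0859).

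Among the receptors only Rarb was called. Rarb had 34, 21 and 15 counts in CON and 51, 48 and 79 in RA, so the groups did not overlap. Its log2 fold change was 1.43 with an adjusted p of 0.0494 by edgeR, close to the threshold. The call was lost when CON sample 2, CON sample 3 or any RA sample was left out, with adjusted p from 0.0866 to 0.197, and with a replicate block (adjusted p = 0.0526). Rarg was the most abundant RA receptor at 69.6 FPKM in CON and 65.5 FPKM in RA, and Rara was at 16.9 and 17.9 FPKM. Their log2 fold changes were -0.10 and 0.07 and neither passed the test, and that of Rara changed sign without CON sample 1.

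Of 5 other tested genes listed as responding to RA, 1 rose, 1 fell and 3, namely Hoxb4, Meis1 and Meis2, were not called, beside the same 4.96% over all genes tested. Tgm2, the tissue transglutaminase, rose by 0.91 on the log2 scale (0.921 to 1.74 FPKM, edgeR's adjusted p = 0.0105), a call lost without RA sample 3 (0.84, adjusted p = 0.0574). Rarres1, named as a retinoic acid receptor responder, fell by 0.87 (4.43 to 2.44 FPKM, edgeR's adjusted p = 0.0121). Its adjusted p by edgeR was 0.0636 without RA sample 1 and 0.0614 without RA sample 2. P450 enzymes of the Cyp26 kind take their electrons from the reductase Por, which was at 33.4 FPKM in CON and 46.6 FPKM in RA. Its adjusted p was 0.0197 by edgeR, but a log2 fold change of 0.47 left it short of the fold threshold, which it passed without CON sample 3 (0.58). The adjusted p of Por by edgeR was 0.0881 without CON sample 2 and 0.0580 to 0.0924 when any 1 RA sample was left out. Fdxr, the reductase that serves mitochondrial P450 enzymes, was a DEG at 2.91 and 5.02 FPKM (0.77, edgeR's adjusted p = 0.0497) and lost the call whichever of the 6 samples was left out, with log2 fold changes of 0.56 to 0.91.

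**Figure D4:**
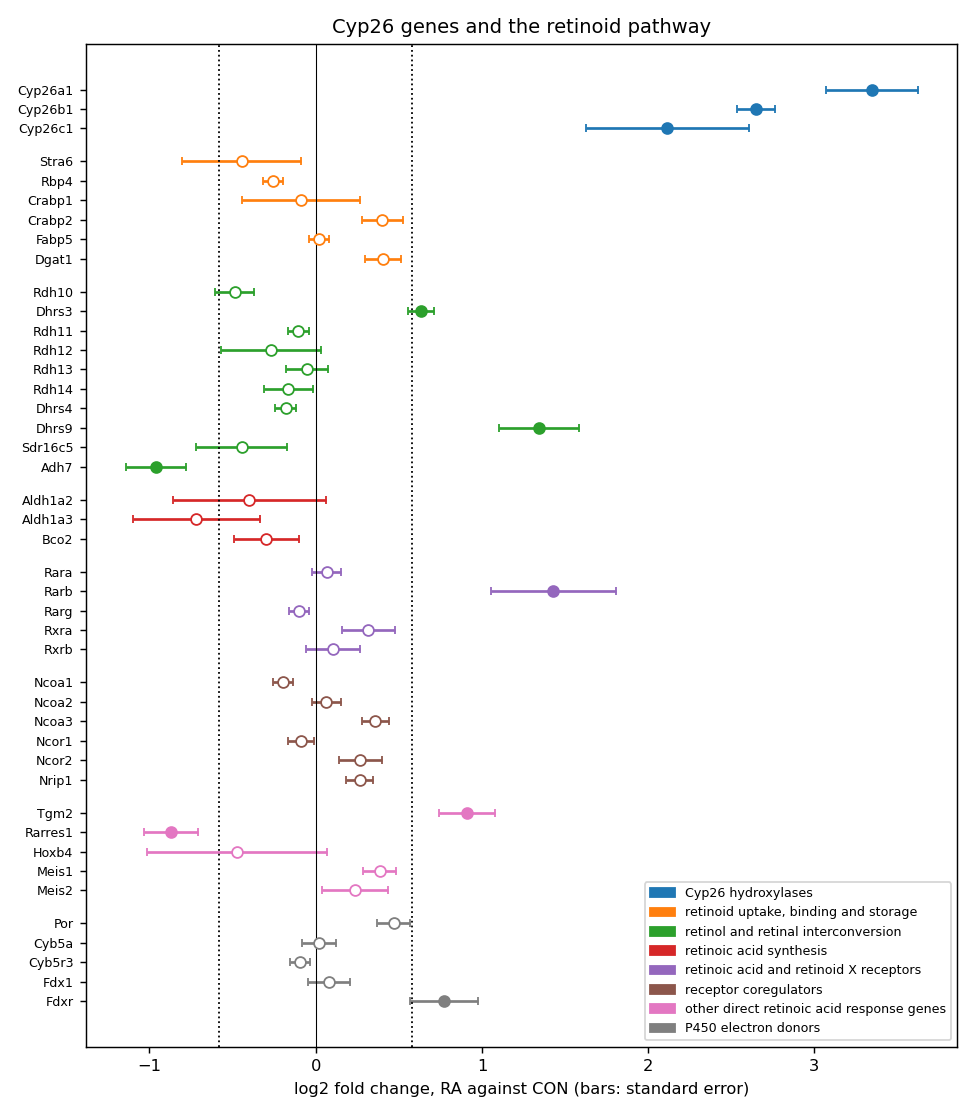
Log2 fold change of RA against CON with its standard error for the 3 Cyp26 genes (top) and the 40 tested genes of the retinoid lists. Colours mark the lists, which include the P450 electron donors. Filled points are DEGs, open points are not, and dotted lines mark 0.58 in each direction; most genes lie between these lines, and the Cyp26 genes lie at 2.12 to 3.35.

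Among the P450 genes of the files, 46 in all, the Cyp26 genes were 3 and the others 43. Of the others 22 were tested, 2 were higher in RA, 1 was lower and 19 were neither, that is 13.6% DEGs beside 4.96% of all genes tested, with a median log2 fold change of -0.22. This share rests on 3 genes, and their number was 0 with limma on log2(FPKM + 1), where the values of these 3 fell short of the fold threshold. Each of the 3 passed the filter on low counts through the group in which it was higher, so nothing is read from this share. The members moved up in the order of mean FPKM over these 46 genes: Cyp26b1 from 8th in CON to 4th in RA, Cyp26a1 from 18th to 7th and Cyp26c1 from 23rd to 13th. Their share of the summed P450 FPKM was 1.05%, 1.25% and 1.12% in CON and 7.91%, 7.07% and 8.66% in RA, while that sum itself was 176 to 190.0 FPKM in CON and 178.5 to 185.5 FPKM in RA.

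Both other P450 genes that rose encode enzymes that act on hormones, and both passed the filter on low counts through their RA samples. Cyp24a1, which inactivates vitamin D, had 4, 4 and 2 counts in CON and 43, 37 and 64 counts in RA (log2 fold change 3.90, edgeR's adjusted p = 7.33e-04). Cyp24a1 stayed below Cyp26a1 and Cyp26b1 in level, at 0.496 FPKM in RA. Cyp19a1, the aromatase that makes estrogens, had 3, 4 and 12 counts in CON and 18, 31 and 32 in RA (2.21, adjusted p = 0.0219 by edgeR). Its adjusted p by edgeR was 0.0926, 0.0971 and 0.0956 when CON sample 2, RA sample 2 or RA sample 3 was left out. Cyp4b1, a P450 of the fatty acid and xenobiotic group, fell by 1.76 on the log2 scale from 0.556 to 0.163 FPKM (edgeR's adjusted p = 0.00688). The 5 most abundant other P450 genes were not DEGs: Cyp51 of sterol synthesis, Cyp20a1, Cyp1b1, Cyp2u1 and Cyp4f6. Cyp51 was the highest, at 79.2 FPKM in CON and 66.0 FPKM in RA, and its log2 fold change of -0.27 fell short of the fold threshold.

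**Figure D5:**
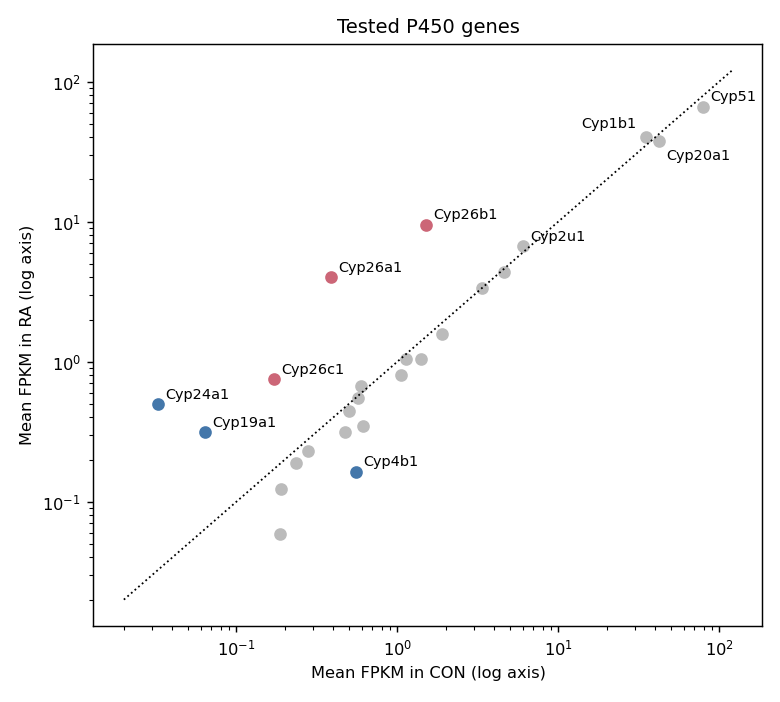
Mean FPKM in RA against mean FPKM in CON, both on log axes, for the tested P450 genes (n = 3 samples per group). Red points are the Cyp26 genes, blue points the other P450 genes that were DEGs, grey points all others, and the dotted line marks equal levels; the red points lie above the line and most grey points lie near it.

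Cyp26a1 and Cyp26c1 are direct neighbours on chromosome 1 in the RefSeq annotation of GRCr8, and Cyp26b1 lies on chromosome 4. The genes around the pair on chromosome 1 did not pass the test, with log2 fold changes of 0.18 for Exoc6, 0.04 for Kif11, 0.14 for Myof and -0.0024 for Cep55. The sign of the first, second and last of these depended on the fit. Hhex, between Exoc6 and Kif11, had at most 2 counts and was not tested, and Rps12l6 had no match in the files. Of the genes around Cyp26b1, Dysf, which encodes the membrane repair protein dysferlin, was a DEG. It had 208, 257 and 235 counts in CON and 457, 383 and 474 in RA (log2 fold change 1.02, SE 0.14, edgeR's adjusted p = 0.00276), less than the 2.65 of Cyp26b1. On the same side Zfp638 and Paip2b were at -0.24 and -0.19, and on the other side Exoc6b and Spr were at -0.01 and 0.53, none of which passed the test. Without CON sample 1 Spr was at 0.28. Emx1 had at most 2 counts and was not tested.

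The genes whose log2 CPM followed the members most closely were ranked by Pearson's r over the 6 samples, a description in which the step between CON and RA carries most of the likeness. For Cyp26a1 these were Errfi1, Hrct1, Scn4a, Fam171a1 and Dnmt1, with r between 0.995 and 0.998. Their changes were smaller than that of Cyp26a1. Their log2 fold changes ran from 0.24 for Dnmt1 to 0.93 for Hrct1, and of the 5 only Hrct1 and Scn4a were DEGs. The call of Scn4a was kept only without CON sample 1 and lost when any other sample was left out, with adjusted p from 0.0666 to 0.107 by edgeR. For Cyp26b1 the closest were Rgl1, Spp1, AABR07069219.1, Sez6l and Itga3, each with r = 0.998. All 5 were DEGs, from 0.59 for Rgl1, whose value fell under the fold threshold without RA sample 3 (0.57), to 2.54 for Sez6l. Spp1, which encodes the matrix protein osteopontin and is one of the osteoblast markers, went from 861 to 3208 FPKM (1.88), and Itga3, an integrin subunit, from 14.1 to 54.2 FPKM (1.93).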

How the data were processed

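Poly(A) RNA of 3 CON and 3 RA samples was sequenced, and samples were grouped by their labels. The study's methods describe 3 independent samples per group, and p-values measure the spread between these samples. The deposited counts are whole reads per gene, without normalization. The authors also deposited an FPKM value per gene, and the ratio of count to FPKM showed 1 gene length for all samples and the total count of each sample as its only scaling. The submitters' processing notes name HISAT2, HTSeq 0.13.5 and the build Rnor_6.0. The annotation and the strand setting are not given in the sources used here, so counts of overlapping or antisense genes and of near-identical copies are uncertain.

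The members and the gene lists were chosen with earlier results of these data known, and not every gene of the lists is reported here. Counts were tested with edgeR 4.0.16 in R 4.3.3 (TMM, filterByExpr with a minimum count of 10, glmQLFit and glmQLFTest) over 13438 genes, and 473 genes were without a read in all samples. For DEGs the Benjamini-Hochberg adjusted p was below 0.05 with an absolute log2 fold change above 0.58. Shares and ratios were compared by exact permutation of the samples. FPKM values are given as mean ± SD. The edgeR, DESeq2 and limma fits were checked on simulated counts with the same dispersion in every gene and no sample set apart. The permutation tests were not checked in this way. Named genes were the members, the DEGs of the retinoid lists with 9 further genes of them, the other P450 DEGs and the 5 most abundant other P450 genes, the 3 nearest protein-coding genes on each side of each member, and the 5 genes most correlated with Cyp26a1 and with Cyp26b1. Csn3 and the other genes with the direct repeat were named after their values were seen, and the motif search was likewise added then. Names, neighbours and promoters came from RefSeq (GRCr8), whose coordinates were not mixed with the build of the counts. Alternatives were DESeq2 1.42.0, other scalings and filters, limma 3.58.1 on log2(FPKM + 0.1) and log2(FPKM + 1), other call rules, a replicate block, and each sample left out in turn. For Cyp26c1 all but the fit without a filter were added after seeing the data.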

Additional observations from a re-analysis of the deposited data

How the results depend on the processing

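Cyp26a1 and Cyp26b1 were DEGs in each of the 14 alternative fits, with log2 fold changes of 1.85 to 3.68 and 2.07 to 2.74, the lowest from limma on log2(FPKM + 1), which understates the change of low genes. Cyp26c1 fell to 0.57 there, under the fold threshold, ranged from 1.73 to 2.71 with 1 sample left out, and gave no value with a filter of at least 1 CPM in 3 samples. Over its alternatives its adjusted p ran from 0.00237 (DESeq2) to 0.133. The replicate numbers did not pair the samples (correlations of deviations 0.093, -0.012 and 0.012). With a replicate block the members' log2 fold changes were 3.38, 2.65 and 2.14, all called, and the DEGs were 684, compared with 667 without it.

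The number of DEGs was 434 with limma on log2(FPKM + 1), 1017 with an unadjusted p, 1319 without a fold threshold, and 480 to 755 with 1 sample left out. The retinoid lists held 7 DEGs, 4 with limma on log2(FPKM + 1), 12 without a fold threshold and 3 to 6 with 1 sample left out. The other P450 genes held 3 DEGs, 0 with limma on log2(FPKM + 1), where Cyp24a1, Cyp4b1 and Cyp19a1 were at 0.53, -0.42 and 0.30, 3 with DESeq2, 5 by edgeR with an unadjusted p, 2 with a filter of at least 1 CPM, and 2 to 4 with 1 sample left out. Values near 0 changed sign: Crabp1 (-0.25 to 0.034), Rara (-0.017 to 0.15), Cyp4f6 (-0.16 to 0.0092), Exoc6 (-0.14 to 0.47), Kif11 (-0.043 to 0.17), Cep55 (-0.092 to 0.051) and Exoc6b (-0.078 to 0.039) with 1 sample left out. Cep55 was also at 0.0096 by total count only, 0.013 and 0.012 with limma and 0.00036 with a replicate block, and Exoc6b at 0.0024 and 0.0018. The cause of these changes was not tested. Of the alternative fits of the 42 other named genes, 525 kept direction and side of the threshold, 39 lost the call, 1 gained it and 18 changed sign. Low counts limit the precision for Cyp26c1, Cyp24a1, Cyp19a1, Crabp1 and the Aldh1a genes, and Hhex and Emx1 did not pass the filter.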
